A study of Mus musculus with 17 samples.

Results

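The genes described are the 10 Toll-like receptors Tlr1, Tlr2, Tlr3, Tlr4, Tlr5, Tlr6, Tlr7, Tlr8, Tlr9 and Tlr13, found by symbol among the 38087 genes of the table. They were followed across neutrophils and macrophages sorted from injured muscle. All cells came from the tibialis anterior of DBA/2J mice, males of 3 months, after cardiotoxin injury. Cardiotoxin comes from snake venom, destroys muscle fibres and sets off regeneration. The 6 groups were 2 samples of neutrophils from day 1, 3 samples of Ly6C high macrophages from each of days 1, 2 and 4, and 3 samples of Ly6C low macrophages from each of days 2 and 4. The labels name no other allele or agent and no sorting gate, no uninjured muscle is used here, and the labels do not say whether a sample came from 1 animal or from several. The authors deposited 1 value per group, on a log2 scale of normalised reads and read here as the group's mean, so the level in a single sample is not known and no difference below has an error, a replicate check or a test.

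Toll-like receptors are membrane proteins of innate immune cells that bind molecules of microbes and of damaged tissue. Tlr1, Tlr2, Tlr4, Tlr5 and Tlr6 act mainly at the cell surface on lipids and proteins, while Tlr3, Tlr7, Tlr8, Tlr9 and Tlr13 act in endosomes on nucleic acids. Nearly all of them signal through the adaptor Myd88, whereas Tlr3 signals through Ticam1 and Tlr4 through both, which leads to NF-kappaB and IRF transcription factors and to cytokine genes. In injured muscle, macrophages with high Ly6C derive from inflammatory blood monocytes and are followed by Ly6C low macrophages that accompany repair.

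Levels of all 10 receptors were above 0 in every group. Per kilobase of exon, Tlr2 had the highest level in every group and Tlr3 the lowest in 5 of the 6. From day 1 to day 4 in Ly6C high macrophages, the 5 surface receptors all had lower values and 4 of the 5 endosomal receptors had higher values, while 50.5% of all genes compared were higher. Of these, Tlr4 and Tlr5 were at least 2-fold lower and Tlr3 and Tlr9 at least 2-fold higher. Among all genes compared, 3.97% were at least 2-fold lower and 17.6% at least 2-fold higher. Fibroblast, endothelial and plasmacytoid dendritic cell markers were also higher in this day 4 group, with values given below. The widest ranges over the 6 groups belonged to Tlr3 (3.70 on the log2 scale, 13.0-fold), Tlr4 (3.36, 10.3-fold), Tlr5 (2.62, 6.13-fold) and Tlr9 (2.31, 4.95-fold). Tlr13 spanned 1.96, Tlr8 1.58, Tlr7 1.34, Tlr6 1.22, Tlr2 1.00 and Tlr1 0.98.

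**Figure D1:**
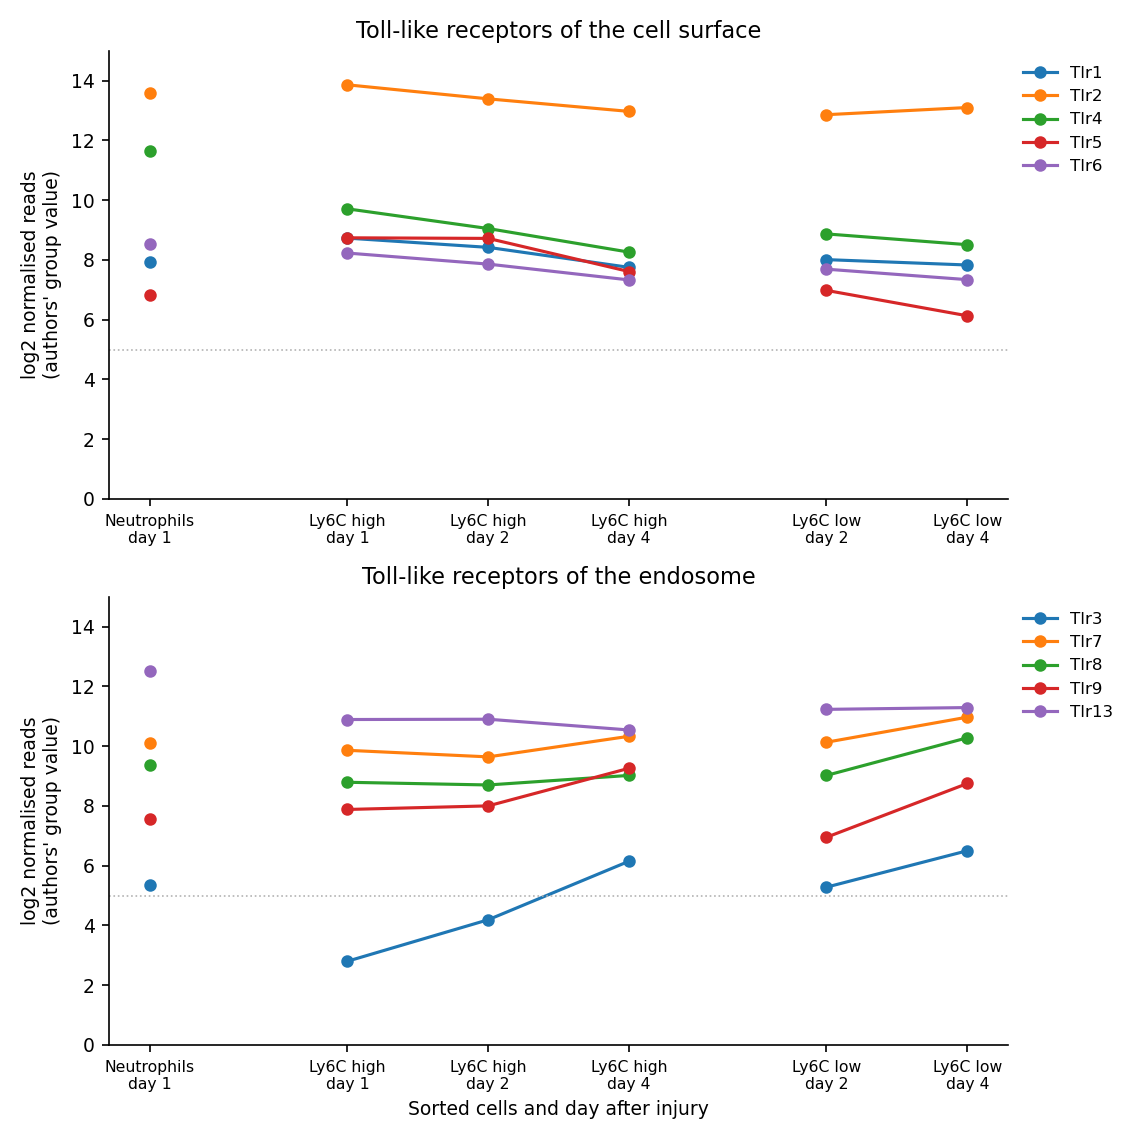
Deposited log2 normalised reads (vertical axis, authors' group value) of the 5 surface and the 5 endosomal Toll-like receptors in the 6 groups (horizontal axis). Each point is 1 group, lines join days of the same sorted population, and the dotted line at 5 is the minimum used for comparisons; Tlr3 in Ly6C high macrophages on days 1 and 2 lies below it.

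On the mouse assembly GRCm38, with GENCODE M21 genes, 2 pairs of members are neighbours. Tlr1 (chromosome 5, 64924679 to 64933563, minus strand) lies 18467 bases from Tlr6 (chromosome 5, 64952031 to 64960097, minus strand). Tlr7 (chromosome X, 167304929 to 167330558, minus strand) lies 40599 bases from Tlr8 (chromosome X, 167242696 to 167264329, minus strand). The others stand alone: Tlr2 on chromosome 3 (83836272 to 83841767, minus strand), Tlr3 on chromosome 8 (45395665 to 45411080, minus strand), Tlr4 on chromosome 4 (66827584 to 66930284, plus strand), Tlr5 on chromosome 1 (182954788 to 182976044, plus strand), Tlr9 on chromosome 9 (106222598 to 106226883, plus strand) and Tlr13 on chromosome X (106143204 to 106160493, plus strand). All values are for whole genes, over all exons. Tlr1 and Tlr6 share 454 stretches of 50 bases, 13.6% of those in Tlr1 and 12.3% of those in Tlr6, and reads from these stretches cannot be placed in 1 of the genes by sequence alone. Exons of Tlr3 overlap those of an antisense gene over 381 bases (7.32% of its exon bases), and the library kit does not mark strand. In all, 15.4% of the stretches of Tlr1 occur in other genes, 12.3% of those of Tlr6, 5.30% of those of Tlr3, 0.216% of those of Tlr4 and none of the other 6 members. The values of Tlr1, Tlr6 and Tlr3 are uncertain for this reason. By how much was not tested, and these shares of stretches do not measure it.

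RefSeq promoter entries matched 8 of the 10 members, all but Tlr4 and Tlr7. Shown here are the 250 bases before the transcription start of Tlr5, Tlr8 and Tlr9. Each of these genes differed by at least 2-fold between macrophage groups, and in each the window holds no exon that GENCODE annotates for the gene. Sequences run 5′ to 3′ on the gene's strand of GRCm38.p6, with motif matches in capitals. The 3 windows are chr1:182954538-182954787 (plus strand), chrX:167264330-167264579 (minus strand) and chr9:106222348-106222597 (plus strand).
Tlr5: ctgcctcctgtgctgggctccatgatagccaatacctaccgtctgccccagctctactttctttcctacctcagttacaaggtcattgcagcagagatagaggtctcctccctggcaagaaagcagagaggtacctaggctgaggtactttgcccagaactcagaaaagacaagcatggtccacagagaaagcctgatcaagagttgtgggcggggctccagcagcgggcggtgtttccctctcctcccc
Tlr8: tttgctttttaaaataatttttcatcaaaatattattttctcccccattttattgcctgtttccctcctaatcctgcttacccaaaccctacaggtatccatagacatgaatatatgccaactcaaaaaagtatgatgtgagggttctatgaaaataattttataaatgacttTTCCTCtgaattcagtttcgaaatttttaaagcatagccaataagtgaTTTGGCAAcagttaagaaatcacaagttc
Tlr9: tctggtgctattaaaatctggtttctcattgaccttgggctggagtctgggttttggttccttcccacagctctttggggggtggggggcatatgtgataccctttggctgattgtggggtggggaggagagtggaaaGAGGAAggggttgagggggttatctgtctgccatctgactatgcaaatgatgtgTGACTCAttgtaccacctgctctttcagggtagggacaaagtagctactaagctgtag
The motifs searched on both strands were those of PU.1 (GAGGAA), AP-1 (TGANTCA), C/EBP (TTGCNNAA), the interferon-stimulated response element (GAAANNGAAA), the ETS and IRF composite element (GGAANNGAAA) and NF-kappaB. Letters of the PU.1 motif and of the composite element can overlap. The 6 motifs, in this order, occurred in 23.3%, 6.75%, 9.56%, 2.98%, 2.30% and 7.25% of 32851 promoter windows of that length. In Tlr9 the capitals mark a PU.1 match that starts 112 bases before the start and an AP-1 match at 58 bases. In Tlr8 they mark a PU.1 match at 77 bases and a C/EBP match at 29 bases, and none of these letters was found in the Tlr5 window. Among the windows not shown, Tlr1 and Tlr13 held a PU.1 match, Tlr2 overlapping NF-kappaB matches, Tlr3 a C/EBP and an NF-kappaB match, and Tlr6 C/EBP and interferon-stimulated response element matches. Tlr1 and Tlr6 have 2 windows each and hold these in 1 of them. A match describes the sequence and says nothing about binding in these cells.

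The sorted groups were checked against marker genes before the receptors were compared. The neutrophil column held neutrophil genes far above the others (summed normalised reads of 11 markers of 87400, against 2150 to 4560 in the macrophage groups). It held macrophage genes too, with 33000 summed over 9 markers against 42000 to 97800, Csf1r at a log2 value of 13.27 and Ly6g at only 3.48. Fibroblast markers summed to 58600 in Ly6C high macrophages on day 4 and 14800 in Ly6C low macrophages on day 4, against 55.6 to 1310 in the other 4 groups, and all 8 were at a log2 value of 5 or more in both day 4 groups. Endothelial markers summed to 5430 in Ly6C high macrophages on day 4 and 259 to 1020 elsewhere. These values move with day 4, and with the Ly6C high sort, and their part in the receptor differences was not tested. In sorted bulk samples, fewer cells of a type and less RNA per cell cannot be told apart.

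Tlr2 binds bacterial lipoproteins together with Tlr1 or Tlr6, and the 3 genes had similar profiles. Tlr2 had log2 values of 13.60 in neutrophils, 13.86, 13.39 and 12.97 in Ly6C high macrophages on days 1, 2 and 4, and 12.86 and 13.10 in Ly6C low macrophages on days 2 and 4. It stood at or above the 99.1 percentile of genes with a value above 0 in every group. Tlr1 had 7.93 in neutrophils, 8.73, 8.42 and 7.75 in Ly6C high macrophages on days 1, 2 and 4, and 8.01 and 7.83 in Ly6C low macrophages on days 2 and 4. Tlr6 had 8.54 in neutrophils, 8.23, 7.86 and 7.33 in the same Ly6C high groups, and 7.69 and 7.34 in the Ly6C low groups. In Ly6C high macrophages all 3 genes were highest on day 1 and lowest on day 4, with day 4 minus day 1 differences of -0.89 for Tlr2, -0.98 for Tlr1 and -0.91 for Tlr6, just inside 2-fold. After each profile was centred on its own mean over the 6 columns, Tlr2 differed by a root mean square of 0.26 on the log2 scale from Tlr1 and from Tlr6. Tlr1 and Tlr6 differed by 0.41, the neutrophil value being above that of Ly6C high macrophages on day 1 for Tlr6 and below it for Tlr1.

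Tlr4, the receptor for bacterial lipopolysaccharide, was highest in neutrophils. Its log2 value was 11.63 there, 9.71, 9.05 and 8.26 in Ly6C high macrophages on days 1, 2 and 4, and 8.87 and 8.51 in Ly6C low macrophages on days 2 and 4. The neutrophil value was 3.77-fold that of Ly6C high macrophages on day 1, a difference of -1.92 for macrophages minus neutrophils. Within Ly6C high macrophages the level on day 4 was 2.73-fold below day 1 (-1.45). The sorted subsets differed little on the same day, by -0.18 on day 2 and 0.25 on day 4 for Ly6C low minus Ly6C high. The genes that serve this receptor differed among themselves between days 1 and 4 in Ly6C high macrophages. Cd14, which delivers lipopolysaccharide, was at least 2-fold lower on day 4 (15.02 against 16.56), and Lbp, which also delivers it, was at least 2-fold higher (8.16 against 5.05). Ly96, the subunit that binds it, had 7.98 on day 1 and 7.46 on day 4, short of 2-fold.

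Tlr5, the receptor for bacterial flagellin, was the 1 member at least 2-fold apart between the Ly6C high and Ly6C low sorts on both days. It had log2 values of 6.83 in neutrophils, 8.74, 8.72 and 7.61 in Ly6C high macrophages on days 1, 2 and 4, and 6.98 and 6.13 in Ly6C low macrophages on days 2 and 4. The Ly6C low value was 3.36-fold lower on day 2 (-1.75) and 2.79-fold lower on day 4 (-1.48). Tlr5 was also the 1 member that was at least 2-fold higher in Ly6C high macrophages than in neutrophils on day 1 (3.77-fold, 1.91). Markers of classical monocytes followed the same division of the sorts: 5 of 6 were at least 2-fold lower in Ly6C low macrophages on each day, with medians of -2.60 and -3.56. Of all genes compared, 4.03% were at least 2-fold lower on day 2 and 8.93% on day 4. Whether these markers account for the Tlr5 values was not tested.

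Tlr7 and Tlr8, neighbours on the X chromosome and close relatives in sequence, had the most similar pair of profiles among the 10, with a root mean square difference of 0.22. Tlr7 binds single-stranded RNA. Its log2 values were 10.09 in neutrophils, 9.86, 9.64 and 10.33 in Ly6C high macrophages on days 1, 2 and 4, and 10.13 and 10.97 in Ly6C low macrophages on days 2 and 4. Tlr8 had 9.37 in neutrophils, 8.79, 8.70 and 9.02 in the Ly6C high groups, and 9.02 and 10.28 in the Ly6C low groups. Both were highest in Ly6C low macrophages on day 4 and lowest in Ly6C high macrophages on day 2. Tlr8 was 2.40-fold higher in Ly6C low than in Ly6C high macrophages on day 4 (1.26) and 2.39-fold higher in Ly6C low macrophages on day 4 than on day 2 (1.26). Tlr7 differed in the same direction by 0.65 and 0.84, short of 2-fold.

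Tlr9, the receptor for unmethylated CpG DNA, was highest on day 4 in both sorts. It had 7.55 in neutrophils, 7.88, 8.0 and 9.26 in Ly6C high macrophages on days 1, 2 and 4, and 6.95 and 8.75 in Ly6C low macrophages on days 2 and 4. Day 4 was 2.40-fold above day 2 in Ly6C high macrophages (1.26) and 3.48-fold above it in Ly6C low macrophages (1.80). Whether these day differences differ between the sorts was not tested, since a group has 1 value. On day 2 the Ly6C low level was 2.06-fold lower than the Ly6C high level (-1.04), and on day 4 it was 1.42-fold lower (-0.51). The AP-1 and PU.1 matches printed above lie in the promoter of this gene.

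Tlr9 and Tlr7 are known to be abundant in plasmacytoid dendritic cells, so markers of that cell type were set beside them. Summed normalised reads of 12 such markers were 2970 in neutrophils, 3360, 3640 and 8340 in Ly6C high macrophages on days 1, 2 and 4, and 2750 and 4300 in Ly6C low macrophages on days 2 and 4. These sums rest mostly on Irf8 (9.79 to 11.3 in the 6 groups), Tcf4 (9.41 to 10.43), Bst2 (8.86 to 10.82) and Runx2 (6.99 to 9.7). In Ly6C high macrophages on day 4, 11 of the 12 had a log2 value of 5 or more, with Siglech at 9.51, while Ptcra was at 0. In Ly6C low macrophages on day 4, where Tlr9 was at 8.75, 4 of the 12 reached 5, Siglech was at 3.99, and Klk1 and Ptcra were at 0. From day 2 to day 4 in Ly6C high macrophages, 9 of the 11 markers compared were at least 2-fold higher, with 14.3% of all genes higher. In Ly6C low macrophages the other 8 markers were under 5 on both days, and the 4 compared were all higher on day 4 but short of 2-fold (median 0.45). Their part in the Tlr9 values of either sort was not tested. The B cell gene Cd79b had 2.24 in neutrophils, 3.55, 4.26 and 5.86 in Ly6C high macrophages on days 1, 2 and 4, and 4.44 and 5.99 in Ly6C low macrophages on days 2 and 4, and its part in the Tlr9 values was not tested.

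**Figure D2:**
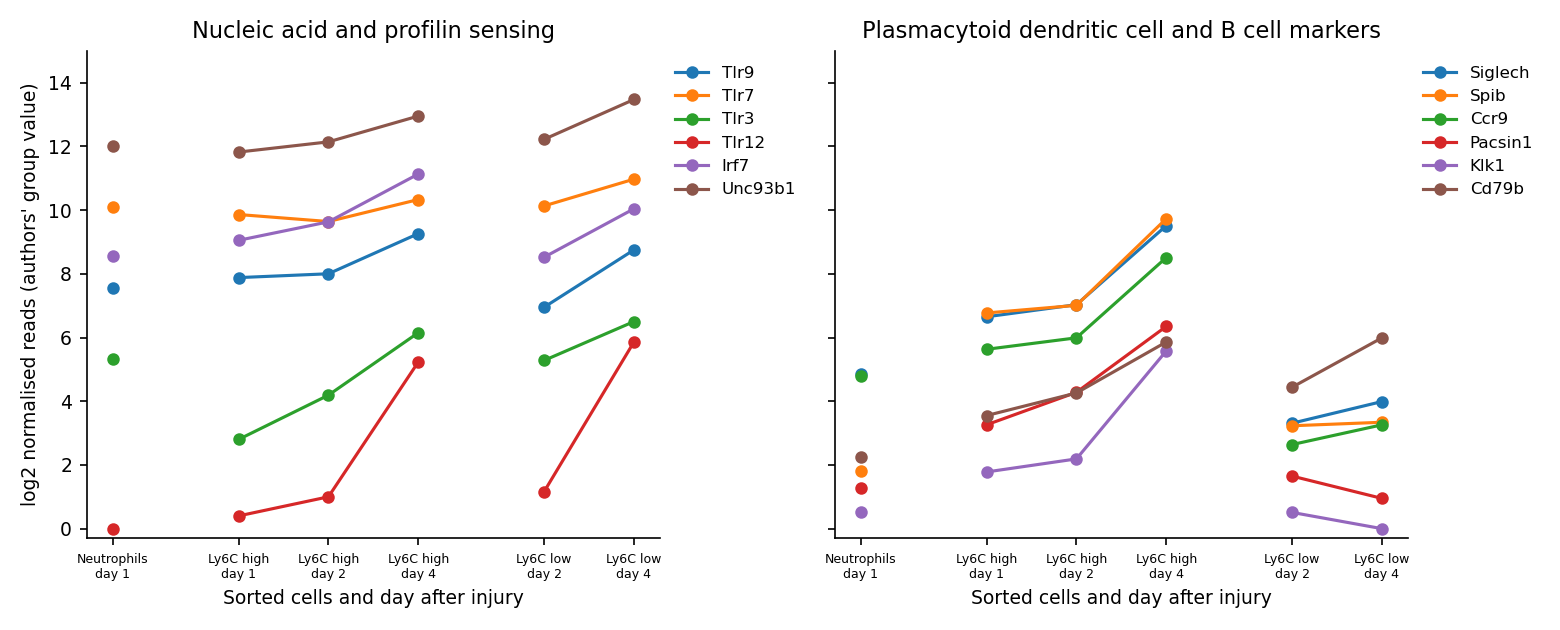
Deposited log2 normalised reads (vertical axis, authors' group value) of Tlr9, Tlr7, Tlr3, Tlr12, Irf7 and Unc93b1 on the left, and of 5 plasmacytoid dendritic cell markers and the B cell gene Cd79b on the right, in the 6 groups (horizontal axis). Each point is 1 group; Siglech reached 9.51 in Ly6C high and 3.99 in Ly6C low macrophages on day 4, where Tlr9 was at 9.26 and 8.75.

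Tlr3, the receptor for double-stranded RNA, was the scarcest member and the one with the widest range. Its log2 values were 5.34 in neutrophils, 2.80, 4.19 and 6.15 in Ly6C high macrophages on days 1, 2 and 4, and 5.28 and 6.50 in Ly6C low macrophages on days 2 and 4. It was higher on each later day in both sorts, by 10.2-fold from day 1 to day 4 in Ly6C high macrophages (3.35) and by 2.33-fold from day 2 to day 4 in Ly6C low macrophages (1.22). The lowest value stood for 9.16 to 11.6 reads in a library, whose counting error alone is up to 33.0%, and the highest for 213 to 214 reads. The step from day 1 to day 2 in Ly6C high macrophages (1.40) was not counted, because both values were under 5. Markers of conventional dendritic cells of type 1, which are rich in Tlr3, summed to 1460, 2120 and 2330 normalised reads in Ly6C high macrophages on days 1, 2 and 4, to 2650 and 3540 in Ly6C low macrophages on days 2 and 4, and to 3330 in neutrophils. These sums rest mostly on Cadm1 (7.24 to 11.12 in the 6 groups) and Wdfy4 (10.10 to 10.89). Of the other markers, Clec9a was at 2.87 to 6.45 and Xcr1 at 4.43 to 5.93 in the macrophage groups. Batf3 was at 1.26 in neutrophils and at 1.69, 3.03 and 4.85 in Ly6C high macrophages on days 1, 2 and 4. In Ly6C low macrophages it was at 3.12 on day 2 and 5.17 on day 4. Batf3 and Tlr3 had the same order of the 5 macrophage groups, but Batf3 reached 5 only in Ly6C low macrophages on day 4. Clec9a and Xcr1 had other orders, and Xcr1 was highest in Ly6C high macrophages on day 1, where Tlr3 was lowest. Itgae was at 7.86 in neutrophils and 0.76 to 4.0 in the macrophage groups, and Tlr11 is given further below. The part of these markers in the Tlr3 values was not tested.

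Tlr13 binds bacterial ribosomal RNA and, like Tlr4, was highest in neutrophils. Its log2 values were 12.50 there, 10.89, 10.90 and 10.54 in Ly6C high macrophages on days 1, 2 and 4, and 11.23 and 11.29 in Ly6C low macrophages on days 2 and 4. The neutrophil level was 3.06-fold that of Ly6C high macrophages on day 1 (-1.61 for macrophages minus neutrophils). Among the macrophage groups the values lay within 0.75 of each other, and the Ly6C low value was above the Ly6C high value on both days, by 0.33 on day 2 and 0.75 on day 4.

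Levels were compared between members only after division by the exon bases of each gene. Per kilobase, Tlr2 led in all 6 groups, from 2470 normalised reads in Ly6C low macrophages on day 2 to 4940 in Ly6C high macrophages on day 1. Tlr13 followed in all groups, from 345 to 1350. The next was Tlr7 in the 5 macrophage groups (195 to 492) and Tlr4 in neutrophils (569). Tlr3 came last (1.34 to 13.6) except in Ly6C low macrophages on day 4, where Tlr5 had 14.6 and Tlr3 17.4. Orders further down are close: the smallest gap between neighbours was 0.04 to 0.44 on the log2 scale, and without sample values it is not known which of these gaps exceed the spread. Of the members' summed level per kilobase, Tlr2 made up 61.0% in neutrophils, 79.1%, 75.1% and 69.0% in Ly6C high macrophages on days 1, 2 and 4, and 66.2% and 62.4% in Ly6C low macrophages on days 2 and 4. The 5 endosomal receptors together made up 27.6% in neutrophils, 13.8%, 17.6% and 25.7% in the Ly6C high groups, and 27.3% and 33.5% in the Ly6C low groups. The endosomal share was thus lowest in Ly6C high macrophages on day 1 and highest in Ly6C low macrophages on day 4. The endosomal sum was 1860 in neutrophils, 860, 832 and 994 in the Ly6C high groups, and 1020 and 1560 in the Ly6C low groups. This sum, unlike the share, was highest in neutrophils. Without Tlr13 it was 512 in neutrophils, 420, 388 and 649 in the Ly6C high groups, and 463 and 980 in the Ly6C low groups. The surface sum was 4870 in neutrophils, 5390, 3900 and 2870 in the Ly6C high groups, and 2710 and 3100 in the Ly6C low groups. Without Tlr2 it was 766 in neutrophils, 448, 349 and 204 in the Ly6C high groups, and 243 and 192 in the Ly6C low groups.

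**Figure D3:**
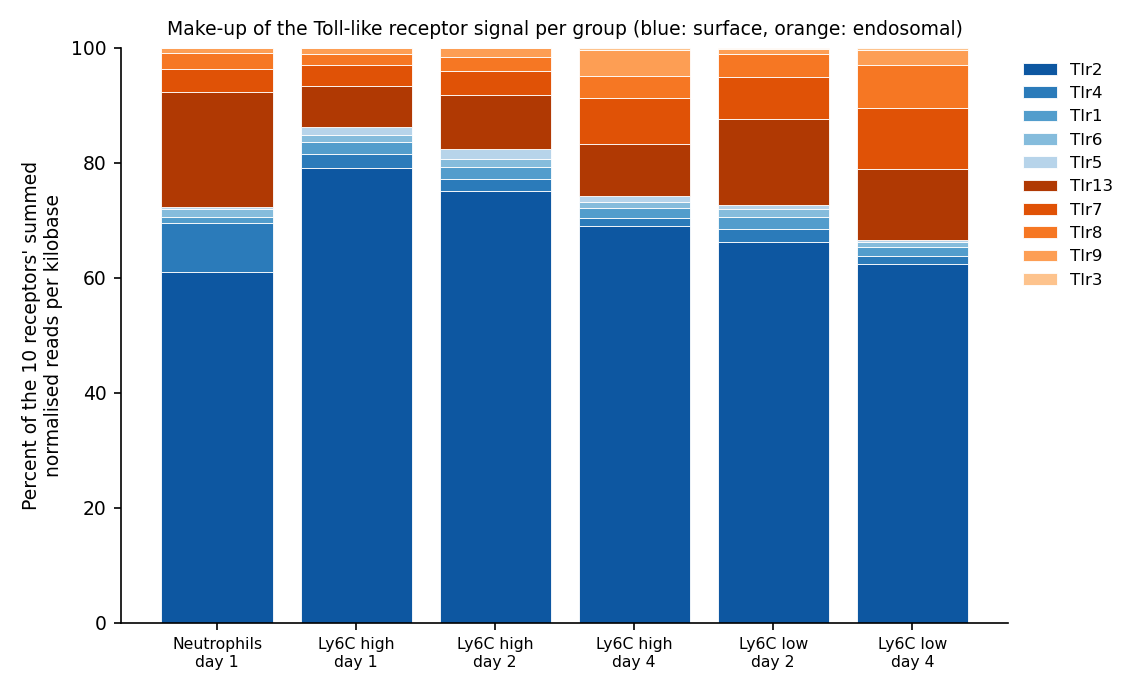
Share (percent, vertical axis) of each Toll-like receptor in the summed normalised reads per kilobase of the 10 receptors, in the 6 groups (horizontal axis), with surface receptors in blue and endosomal receptors in orange. Tlr2 makes up 61.0 to 79.1% of each bar, and the orange part is 13.8% in Ly6C high macrophages on day 1 and 33.5% in Ly6C low macrophages on day 4.

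The comparisons of group pairs asked which members differed by at least 2-fold (1 on the log2 scale) among those that reached a log2 value of 5 in either group. Several comparisons share a column, so they are not independent of each other. Between Ly6C high macrophages and neutrophils on day 1, Tlr5 was higher in macrophages and Tlr3, Tlr4 and Tlr13 were lower, 1 and 3 of 10. Of the 11890 genes compared there, 16.6% were at least 2-fold higher and 16.1% at least 2-fold lower. The median difference was -0.27 for the 10 members and 0.08 for all genes. The members' counts lie near this background, and the neutrophil column carried macrophage genes as described above.

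From day 1 to day 2 in Ly6C high macrophages, none of the 9 members compared was 2-fold apart, and 1.41% of genes were higher and 1.10% lower. The 5 surface receptors all had differences below 0, from -0.66 for Tlr4 to -0.02 for Tlr5. From day 2 to day 4, Tlr3 and Tlr9 were higher (1.96 and 1.26) and Tlr5 was lower (-1.12), 2 and 1 of 10, with 14.3% of genes higher and 2.00% lower. From day 1 to day 4, Tlr3 and Tlr9 were higher (3.35 and 1.38) and Tlr4 and Tlr5 were lower (-1.45 and -1.14), 2 and 2 of 10, with 17.6% of genes higher and 3.97% lower. The members' median was -0.39 from day 2 and -0.62 from day 1, and that of all genes 0.01 in each. By site, the median from day 1 to day 4 was -0.98 for the surface receptors, all 5 below 0, and 0.47 for the endosomal receptors, 4 of 5 above 0, while 50.5% of all genes compared were above 0. These counts above and below 0 were the same after median-ratio rescaling of the columns and after quantile normalization. Quantile normalization moved the median of all genes to -0.14 and the higher share of all 2-fold genes from 81.6 to 56.9%, and from 87.7 to 62.0% for day 4 against day 2.

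Between the sorts on day 2, Tlr3 was at least 2-fold higher in Ly6C low macrophages (1.08) and Tlr5 and Tlr9 were lower, 1 and 2 of 10, with 3.71% of genes higher and 4.03% lower. All 5 surface receptors had differences below 0 (median -0.41) and 4 of 5 endosomal receptors above 0 (median 0.33), against 47.4% of all genes above 0. The difference of Tlr3 lay close to 2-fold and came to 0.97 after quantile normalization. On day 4, Tlr8 was higher in Ly6C low macrophages and Tlr5 was lower, 1 and 1 of 10, with 2.44% of genes higher and 8.93% lower. The higher share of all 2-fold genes there was 21.4% and 38.2% after quantile normalization. Between these groups the medians were 0.08 for surface and 0.65 for endosomal receptors, and 4 of 5 surface receptors were above 0, or 3 of 5 after median-ratio rescaling.

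From day 2 to day 4 in Ly6C low macrophages, Tlr3, Tlr8 and Tlr9 were at least 2-fold higher and none was lower, 3 and 0 of 10, with 9.23% of genes higher and 2.16% lower. All 5 endosomal receptors had differences above 0, with a median of 1.22, and 4 of 5 surface receptors had differences below 0, with a median of -0.35. Tlr2 was the surface receptor above 0 (0.24). Among all genes 52.0% were above 0. Quantile normalization left these signs as they were, put Tlr3 at 0.98, and moved the higher share of all 2-fold genes from 81.1 to 66.7%.

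**Figure D4:**
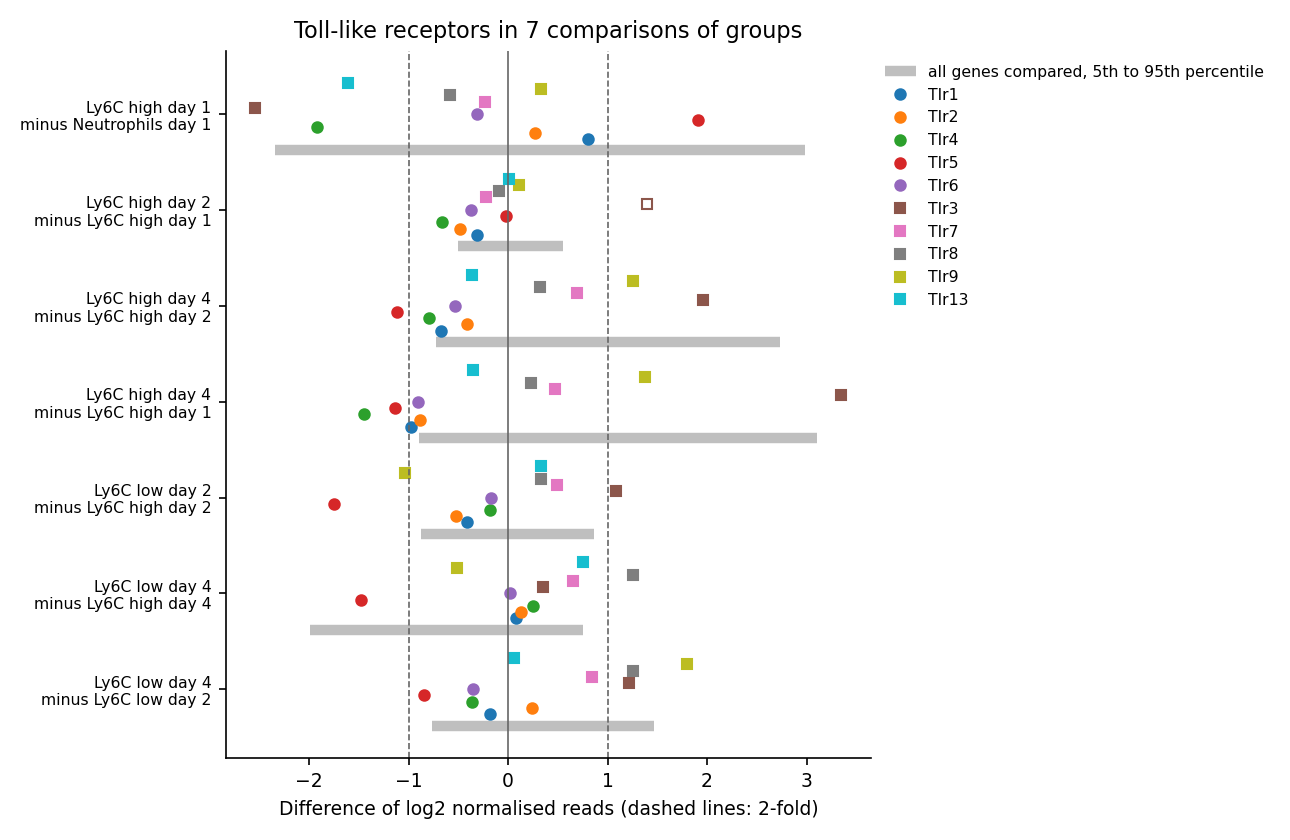
Difference of log2 normalised reads (horizontal axis) of the 10 Toll-like receptors in each of the 7 comparisons of groups (vertical axis), with surface receptors as circles and endosomal receptors as squares. The open square marks Tlr3 where both groups were under 5, dashed lines mark 2-fold, and grey bars span the 5th to the 95th percentile of all genes compared; the circles from day 1 to day 4 in Ly6C high macrophages all lie below 0.

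The other genes of the pathway were counted in lists ordered from receptor to response. Of 6 surface co-receptor genes, 2 were at least 2-fold higher and 2 lower in Ly6C high macrophages on day 4 than on day 1, where 17.6% of all genes were higher and 3.97% lower. Lbp, the lipopolysaccharide binding protein, was higher there (8.16 against 5.05), as was Ly86, a partner of the Tlr4-like protein Cd180 (11.38 against 9.93). Cd14 and the scavenger receptor Cd36 (12.53 against 13.78) were lower. Of 13 folding, trafficking and processing genes, Unc93b1 and the protease Ctsk were higher and the chaperone Hsp90b1 was lower in that comparison. Unc93b1, which carries the endosomal receptors from the endoplasmic reticulum to the endosome, had 12.01 in neutrophils, 11.82, 12.14 and 12.95 in the Ly6C high groups on days 1, 2 and 4, and 12.22 and 13.47 in the Ly6C low groups on days 2 and 4. Like the medians of the endosomal receptors, it was higher on day 4 in both sorts, by 1.14 from day 1 in Ly6C high macrophages.

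Of the 5 adaptor genes compared, none was 2-fold apart in any of the 6 comparisons between macrophage groups, and of 19 kinases and ubiquitin ligases at most 1 was. In these comparisons 1.41 to 17.6% of all genes were higher and 1.10 to 8.93% lower, so a count of 0 of 5 is near this background. Myd88 had 10.75 in neutrophils, 10.64, 10.53 and 10.26 in the Ly6C high groups and 10.02 and 9.93 in the Ly6C low groups. Ticam1 had 8.27 in neutrophils and between 9.35 and 10.01 in the macrophage groups, 1.74 higher in Ly6C high macrophages than in neutrophils on day 1. Of 8 transcription factors, Irf7, which acts below Tlr7 and Tlr9, was at least 2-fold apart in 5 of the 6 comparisons between macrophage groups. Its values were 8.55 in neutrophils, 9.05, 9.63 and 11.13 in the Ly6C high groups on days 1, 2 and 4, and 8.52 and 10.04 in the Ly6C low groups on days 2 and 4. Irf7 and Tlr9 had the same order of the 5 macrophage groups, a likeness seen in the values and not tested.

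Among 13 inhibitor genes measured, 2 were at least 2-fold higher and 2 lower in Ly6C high macrophages on day 4 than on day 1, with 17.6% of all genes higher and 3.97% lower in this comparison, which is also that of the next 2 lists. Il1rl1 (7.11 against 5.45) and Sigirr (5.7 against 3.91) were higher, and Irak3 and Nfkbia were lower. Irak3, an inhibitory member of the IRAK family, had 10.84 in neutrophils, 9.96, 9.13 and 8.63 in the Ly6C high groups and 8.44 and 7.98 in the Ly6C low groups. Nfkbia, which holds NF-kappaB in the cytoplasm, had 14.25 on day 1 and 13.10 on day 4 in Ly6C high macrophages. Among 8 endogenous ligand genes compared, 2 were higher and 4 lower. Bgn and Tnc were higher on day 4 than on day 1 in Ly6C high macrophages (12.49 against 6.57 and 10.10 against 6.76), beside the fibroblast markers given above. S100a8 and S100a9, the calprotectin subunits that act on Tlr4, were lower (5.64 against 9.34 and 5.04 against 9.64), as were Vcan (11.07 against 14.21) and Fn1 (15.59 against 16.64). S100a8 and S100a9 also belong to the neutrophil markers, of which 5 of 7 compared were lower there (median -2.53), with sums over all 11 of 4560 on day 1 and 2150 on day 4, and the part of neutrophils in these values was not tested. Of 13 response genes compared there, 2 were higher (Cxcl10 and Ccl5) and 6 lower, among them Il1b (13.19 against 15.85) and Ptgs2 (11.64 against 14.58).

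**Figure D5:**
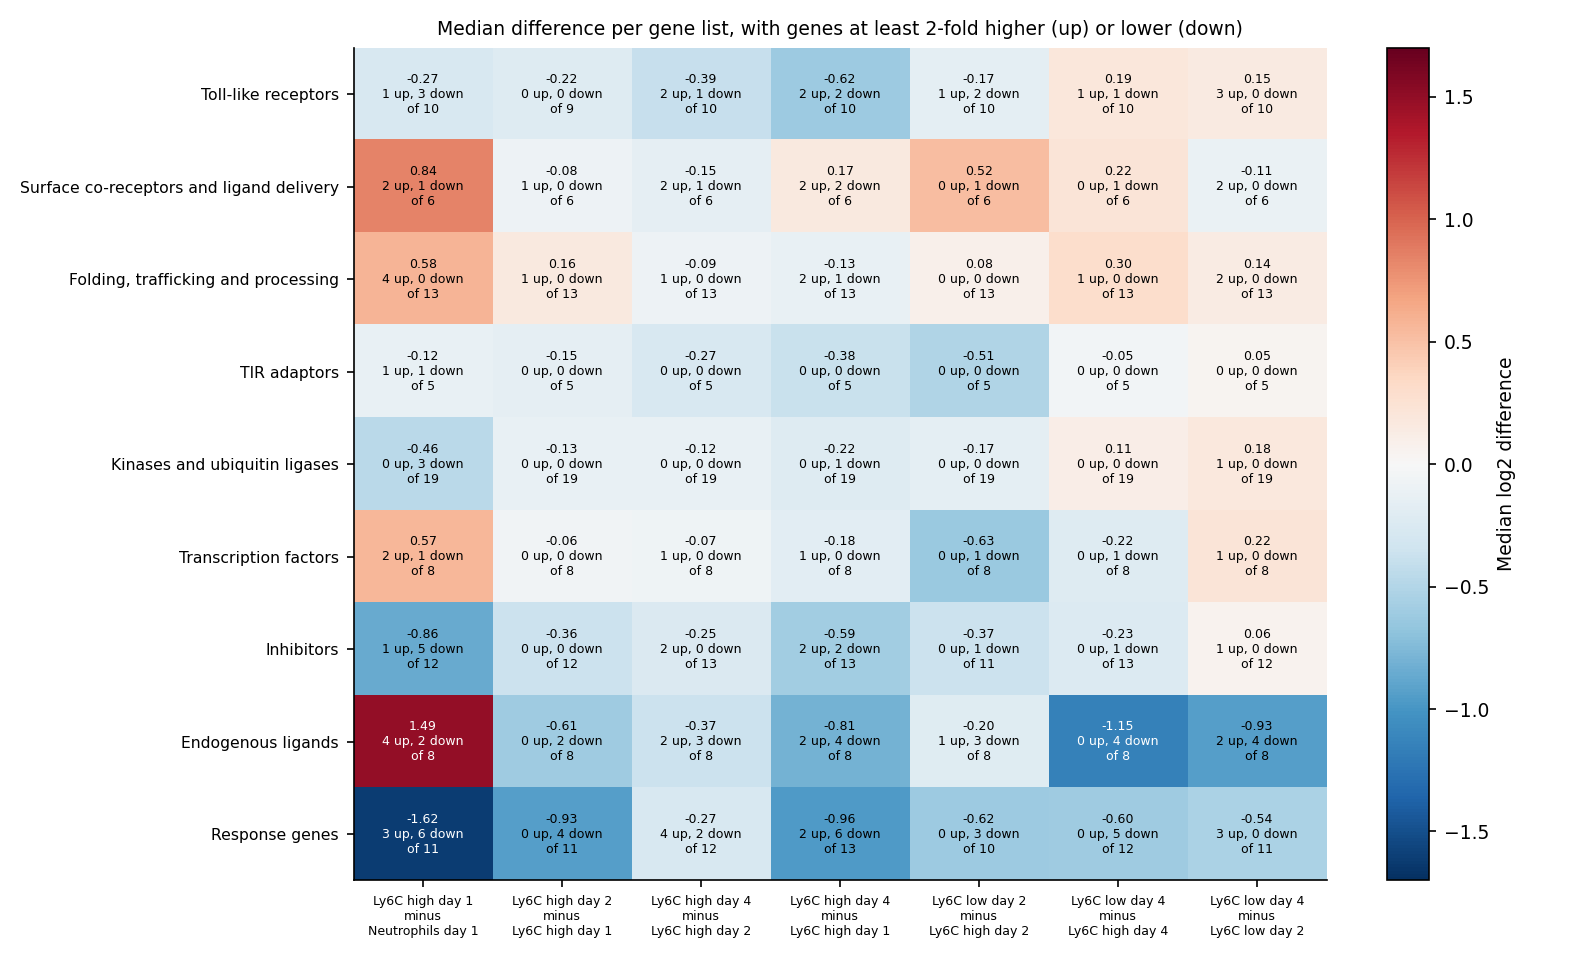
Median log2 difference (colour and upper number) of the genes compared in each list of the Toll-like receptor pathway (rows) for the 7 comparisons of groups (columns), with the number at least 2-fold higher (up) or lower (down). The adaptor row holds no 2-fold gene in the 6 comparisons between macrophage groups, and the median of all genes compared lies between -0.03 and 0.08.

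For the members with a range of at least 2, the genes with the most similar profile over the 6 columns were sought among genes with a log2 value of at least 7 in some group. The measure was the root mean square difference of profiles, each centred on its own mean. For Tlr4 these were Hspa4l (0.20), Tnf (0.21) and AC124475.1 (0.26). Tnf had 14.58 in neutrophils, 12.21, 11.55 and 11.24 in the Ly6C high groups on days 1, 2 and 4, and 11.69 and 11.07 in the Ly6C low groups on days 2 and 4. For Tlr5 they were Jarid2 (0.19), Lpar1 (0.20) and B3gnt5 (0.21). For Tlr9 they were Ifi203 (0.20), Ptprs (0.22) and Mfng (0.22), and for Tlr3 Rasgrp3 (0.20), Ttyh2 (0.26) and Plk1s1 (0.27). With 6 columns, many genes can come close to a given profile.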

How the data were processed

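The labels describe 17 samples in 6 groups. Per the labels' protocols, poly-A RNA was selected, TruSeq libraries were prepared and a HiSeq 2500 sequenced them. Named in the submitters' processing notes, without a role, are mm10, TopHat2 2.0.7 and Cufflinks 2.0.2. Annotation: not given in the sources used here, as is the way of normalization. Deposited by the authors were log2 normalised reads, 1 column per group, read here as the group's mean. Total reads per sample cannot be had from them. Steps between low values, found for 16 of 17 libraries (22.6 to 58.9% of low-valued genes of a column, relative tolerance 1e-05), put the worth of 1 read at 0.412 to 1.03 normalised units. A log2 value of 5 then stood for 31.1 to 77.7 reads, with a counting error of 11.3 to 17.9%. The worth of 1.03, and with it the 31.1 reads and the 17.9%, came from a neutrophil library whose step is uncertain, as described at the end.

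The members and gene lists were chosen with earlier results of these data known. Genes that reached a log2 value of 5 in either group were compared and counted at 2-fold. No pseudocount was added. All members were named. Other pathway genes were named mostly by size of difference (up to 4 per list and comparison, 2-fold apart, at least 7 in the higher group), with Cd14, Ly96, Unc93b1, Myd88, Ticam1 and Irak3 in any case. Not every gene that qualified is named, and some are given in other comparisons than those in which they qualified. Sigirr, Tnf, Il12b, Ifnb1, Tlr11 and Tlr12 are named outside this rule. A marker list is not reported here in full. GENCODE M21 held 36308 of the identifiers (95.3%). Scripts used Python 3.11.15, numpy 2.4.6 and pandas 2.3.3 and were tested on simulated data. Alternatives were pseudocounts of 0.1 and 5, other filters, rescaling, quantile normalization and 1.5-fold.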

Additional observations from a re-analysis of the deposited data

How the results depend on the processing

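With 1 value per group, no spread between samples is known, and no replicate could be left out. No paired analysis was possible because the table holds no value for a single sample. The build named in the notes comes from another strain than DBA/2J, and its effect on single receptors was not tested. All 14 counts of members (higher or lower in 7 comparisons) were the same with a pseudocount of 0.1 and with both median-ratio rescalings. Of the members' differences, 1 changed sign under a pseudocount or scaling: Tlr6 in Ly6C low minus Ly6C high macrophages on day 4, from 0.02 to -0.01 with both rescalings.

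Tlr3, higher in Ly6C low than in Ly6C high macrophages on day 2, was no longer counted with a pseudocount of 5, a minimum of 7 or quantile normalization (0 members each). Without a filter, or with a value of 5 in at least 2 of all groups, 1 member (Tlr3) was higher on day 2 than on day 1 in Ly6C high macrophages. Of all genes, 1.66% and 2.54% were higher there under these 2 settings. With a minimum of 7, only Tlr9 was higher in these cells on day 4 than on day 2 and than on day 1 (1 each). The shares of all genes higher were then 9.08% and 11.7%. After quantile normalization 4 members were lower on day 4 than on day 1 in Ly6C high macrophages, Tlr1 and Tlr6 being added, and 1 (Tlr5) from day 2 to day 4 in Ly6C low macrophages. Of all genes, 9.38% and 3.64% were then lower in these 2 comparisons. At 1.5-fold, 2 members were higher in Ly6C high macrophages than in neutrophils, with 27.1% of all genes higher. In Ly6C high macrophages 1 was lower from day 1 to day 2, 3 from day 2 to day 4 and 5 from day 1 to day 4. The shares of all genes lower by 1.5-fold were 3.53%, 8.3% and 12.1%. In Ly6C low macrophages 3 were higher than in Ly6C high macrophages on day 4, and 1 was lower on day 4 than on day 2. Of all genes, 8.17% were higher in the former comparison and 10.3% lower in the latter. The filters and folds act by construction, and the cause of the other shifts was not tested.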

Other observations

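The mouse has further Toll-like receptors, of which Tlr11 and Tlr12, endosomal receptors for profilin of protozoan parasites, were looked at after their values were seen. Tlr12 was listed at 0 in neutrophils. Its log2 value in Ly6C high macrophages was 0.40 on day 1, 1.00 on day 2 and 5.23 on day 4, and in Ly6C low macrophages it was 1.16 on day 2 and 5.86 on day 4. It passed 5 on day 4 in both sorts. Tlr11 was at 0 to 0.67 in the 4 groups before day 4 and at 2.40 and 1.82 in Ly6C high and Ly6C low macrophages on day 4, under the minimum used for comparisons. Both were highest on day 4, as Tlr3 was in each sort.

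Among the response genes, Il12b had 0.00 in neutrophils, 0.58, 0.96 and 3.48 in Ly6C high macrophages on days 1, 2 and 4, and 1.36 and 4.67 in Ly6C low macrophages on days 2 and 4, below the minimum in all 6 groups. Ifnb1 lay between 0.00 and 1.65 in all 6 groups.

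For 1 of the 2 neutrophil libraries, steps were counted at a few low numbers of reads, among genes that seemed to have reads in that library alone. Values fell on the even numbers counted for 727 genes and on the odd numbers for 127. Whether the step taken as 1 read there stands for 1 read is uncertain. What lies behind this was not tested, and the precision of the neutrophil values of the receptors is uncertain for that reason.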
